A study of Arabidopsis thaliana with 20 samples.

Results

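PDF1.2 (AT5G44420) and PDF1.2b (AT2G26020) are Arabidopsis thaliana genes for plant defensins, small secreted antifungal peptides. Both were followed on all 20 arrays, with 1 probe set each, out of 22810 probe sets of which 13513 were paired with exactly 1 gene. They were chosen by name as the defensin genes that jasmonate and ethylene induce, with earlier results of these data known. Their ranks among all probe sets below are therefore not independent evidence. The arrays held RNA of plants mutated in MYB3R genes, a family of MYB transcription factors that act in the cell division cycle. First leaf pairs came from the myb3r1 myb3r3 myb3r5 triple mutant and from wild type (Columbia): each genotype had 2 arrays at an age of 5 d and 3 at 15 d. Whole seedlings of 9 d came from 9 mutant genotypes and from wild type, with 1 array each. Besides the single mutants of myb3r1, myb3r3, myb3r4 and myb3r5, there were 2 double mutants (myb3r1 myb3r4; myb3r3 myb3r5), 2 triple mutants (myb3r1 myb3r3 myb3r5; myb3r3 myb3r4 myb3r5) and the quadruple mutant of all 4 genes. All plants grew at 22 °C in constant light on agar with 2% sucrose, and no hormone, wound or pathogen treatment is named in the labels. The mutant alleles are not named in the sources used here, and neither is the number of plants behind a sample.

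Jasmonate is perceived by a receptor complex that marks JAZ repressor proteins for destruction, which frees transcription factors. In Arabidopsis the response divides into a wound branch led by MYC factors and a pathogen branch, in which jasmonate and ethylene act together through EIN3 and ERF factors. PDF1.2 is the classic output gene of the pathogen branch, and salicylate signalling is known to repress it. In the gene table used here (assembly TAIR10.1) PDF1.2 lies next to another copy, PDF1.2c, and PDF1.2b lies next to the related gene PDF1.3. PDF1.2c and PDF1.3 had no named probe set here. The PDF1.2b probe set carries the suffix by which Affymetrix marks probes that also match other transcripts. RNA of one near-identical copy read by both probe sets and RNA of separate genes therefore cannot be told apart, and each name below stands for its probe set.

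The values are array signals on a linear scale, and a floor of 33.1, a typical 25th percentile of an array, stands for low signal. Per-array trimmed means ran from 500.04 to 500.06, and precision is limited by how few arrays there are. Green tissue was present throughout: the 4 named photosynthesis markers (RCA, LHCB4.1, LHCB4.2 and LHCB4.3) summed to between 6583 and 64648 in leaf arrays and between 46875 and 58517 in seedlings, with none below the floor. The 2 named root markers (EXPA7 and EXPA18, root hair expansin genes) summed to between 14.3 and 92.0 in leaf arrays and between 241 and 389 in seedlings. In bulk RNA, fewer cells that express a gene and less RNA per cell cannot be told apart.

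In seedlings both defensin signals were higher in every double, triple and quadruple mutant than in wild type and in every single mutant. How many of all probe sets separate in this way was not counted, so this is a description only. PDF1.2 had a signal of 1045 in myb3r1, 1091 in myb3r3, 495 in myb3r4 and 1377 in myb3r5 seedlings. It had 3401 in myb3r1 myb3r4 and 3024 in myb3r3 myb3r5 double mutants. It had 5112 in myb3r1 myb3r3 myb3r5, 3533 in myb3r3 myb3r4 myb3r5 and 12724 in the quadruple mutant, against 773 in wild-type seedlings. The single mutants lay on both sides of wild type, while all 5 genotypes with 2 or more mutated genes lay above them, the quadruple mutant highest.

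PDF1.2b followed the same outline. Its signal was 2977 in myb3r1, 1841 in myb3r3, 1019 in myb3r4 and 2871 in myb3r5 seedlings. It was 7561 in myb3r1 myb3r4, 6316 in myb3r3 myb3r5, 7943 in myb3r1 myb3r3 myb3r5, 7448 in myb3r3 myb3r4 myb3r5 and 14906 in the quadruple mutant, against 1148 in wild-type seedlings. The myb3r4 single mutant was again the lowest of the 10 arrays and the quadruple mutant the highest.

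**Figure D1:**
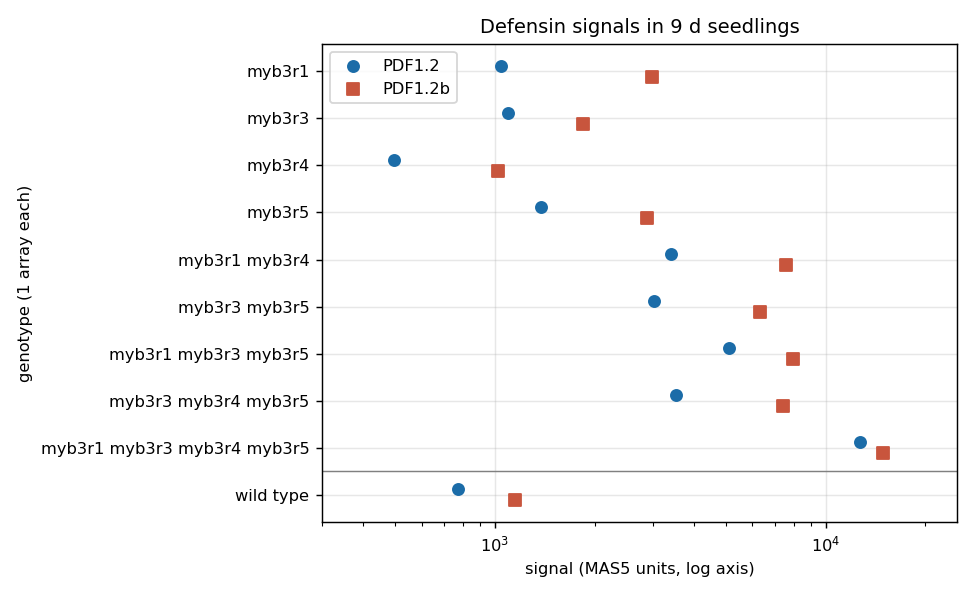
Signal of PDF1.2 (circles) and PDF1.2b (squares) in 9 d seedlings on a log axis, 1 array per genotype, wild type in the bottom row. The 5 genotypes with 2 or more mutated genes lie to the right of the 4 single mutants and of wild type for both genes, and the quadruple mutant lies at 12724 and 14906.

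As ratios over the wild-type array, PDF1.2 was 16.5-fold higher in the quadruple mutant, 6.61-fold in myb3r1 myb3r3 myb3r5, 4.57-fold in myb3r3 myb3r4 myb3r5, 4.40-fold in myb3r1 myb3r4 and 3.91-fold in myb3r3 myb3r5. Of the 19626 probe sets that exceeded the floor in any seedling genotype, 2 had a larger ratio than PDF1.2 in the quadruple mutant, and 4 to 19 did in the double and triple mutants. PDF1.2b was higher by 3.70 log2 units in the quadruple mutant, where 4 probe sets had a larger ratio, and 5.50-fold to 6.92-fold higher in the double and triple mutants, where 2 to 9 probe sets had a larger ratio. In single mutants PDF1.2 ranged from 0.64-fold in myb3r4 to 1.78-fold in myb3r5. PDF1.2b ranged from 0.89-fold in myb3r4 to 2.59-fold in myb3r1. All these ratios share 1 wild-type array and each genotype has 1 array, so genotype and array cannot be told apart and a single ratio has no test.

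Few probe sets varied as much between seedling genotypes. Over the 10 seedling arrays the SD of log2 signal was 1.43 for PDF1.2 and 1.31 for PDF1.2b, against a median of 0.21 over all 19626 probe sets. These were the 4th and the 9th highest SD. The highest seedling signal was 25.7 times the lowest for PDF1.2 and 14.6 times the lowest for PDF1.2b.

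The additive effect of each mutation was estimated over all 10 seedling arrays with limma, in a model with 1 term for each mutated gene and 5 residual degrees of freedom. For PDF1.2 the log2 effect was 1.42 for myb3r1 (SE 0.31, adjusted p = 0.37), 1.29 for myb3r5 (SE 0.37, adjusted p = 0.61), 0.96 for myb3r3 (SE 0.37, adjusted p = 0.44) and 0.62 for myb3r4 (SE 0.31, adjusted p = 0.85). For PDF1.2b it was 1.39 for myb3r1 (SE 0.31, adjusted p = 0.37), 1.29 for myb3r5 (SE 0.37, adjusted p = 0.61), 0.65 for myb3r3 (SE 0.37, adjusted p = 0.59) and 0.57 for myb3r4 (SE 0.31, adjusted p = 0.86). All 8 estimates were positive and none passed the test after adjustment over all probe sets. The 8 are not independent, since they share arrays and the probe sets may share transcripts. How many of all probe sets have only positive terms was not counted, so the shared sign is a description. In the background, limma called 0% of probe sets for myb3r1 (1948 at an unadjusted p under 0.05), 0.0051% for myb3r3, 0.0153% for myb3r4 and 0% for myb3r5 (1508 at an unadjusted p under 0.05).

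The additive model did not describe all genotypes equally well. The myb3r4 single mutant lay below its fitted value by -0.74 log2 units for PDF1.2 and -0.75 for PDF1.2b. The myb3r1 myb3r4 double mutant, which carries that mutation too, lay above its fitted value by 0.62 and 0.76. Genotypes without that mutation also departed from the fit. For PDF1.2 the departure was 0.52 in wild type and -0.47 in myb3r1. For PDF1.2b it was 0.52 in myb3r3 myb3r5 and -0.54 in myb3r1 myb3r3 myb3r5. The residual SD of the fit was 0.59 log2 units for each gene, against a median of 0.19 over all probe sets.

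Set in order of signal, neighbouring genotypes are given beside that residual SD of 0.59, as a description of sorted single arrays. That SD measures departures from the additive fit, not a spread between replicates, which the seedlings lack. A gap above it is therefore no evidence of a step between genotypes. For PDF1.2 the gap between myb3r5, the highest single mutant, and the myb3r3 myb3r5 double mutant was 1.14 log2 units, and the gap between the quadruple mutant and the next genotype was 1.32. The gap between wild type and the myb3r4 single mutant below it was 0.64, also larger than the residual SD. Neighbours among the double and triple mutants differed by at most 0.53, less than the residual SD. For PDF1.2b the corresponding gaps were 1.09, from myb3r1 to myb3r3 myb3r5, and 0.91. Gaps of 0.68, between myb3r3 and wild type, and of 0.64, between myb3r5 and myb3r3, also exceeded the residual SD, while neighbours among the double and triple mutants differed by at most 0.24.

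The signals were therefore also described by the number of mutated genes, a model chosen after the values were seen, so its p-values are not independent evidence. PDF1.2 signals climbed without overlap in the order of single, double, triple and quadruple mutants, as did 0.0815% of all probe sets, while 0.0866% dropped without overlap in that order. PDF1.2b did not meet this description, since the myb3r1 myb3r4 double mutant (7561) lay above the myb3r3 myb3r4 myb3r5 triple mutant (7448). Per mutated gene the limma slope was 1.08 log2 units for PDF1.2 (SE 0.13, adjusted p = 0.10), a 2.12-fold step, and 0.97 for PDF1.2b (SE 0.13, adjusted p = 0.11). Neither passed the threshold, and limma called 0% of probe sets on this term (0 of 19626, with 2173 at an unadjusted p under 0.05). Ranked by unadjusted p, PDF1.2 (5.13e-06) stood first and PDF1.2b (1.83e-05) second among the 19626. The adjusted p passed the threshold without a floor (0.00074 and 0.0023), with a filter at 4 times the floor (0.0020 and 0.0051) and without the myb3r4 array (0.0097 and 0.044). It was 0.48 for both genes without the quadruple mutant array, where the slopes were 1.01 and 1.03.

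**Figure D2:**
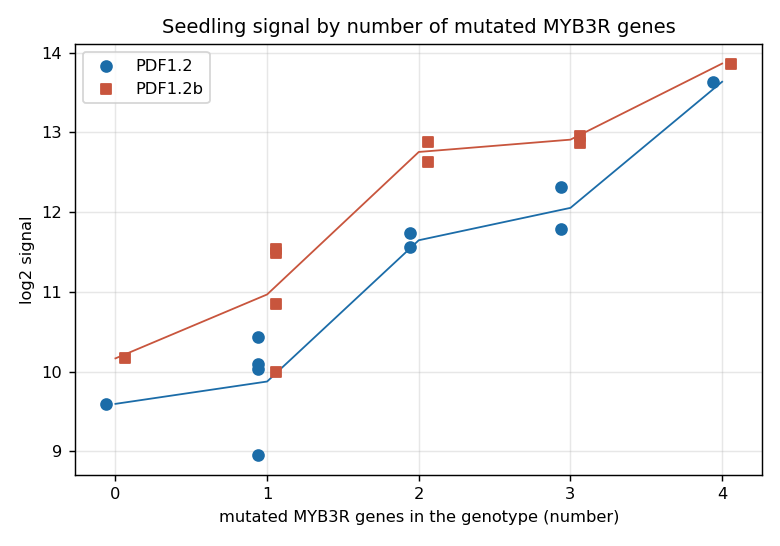
Log2 signal of PDF1.2 (circles) and PDF1.2b (squares) on 10 seedling arrays against the number of mutated MYB3R genes in the genotype, with lines through the means at each number. The means run from 9.59 to 13.64 for PDF1.2 and from 10.16 to 13.86 for PDF1.2b between 0 and 4 mutated genes.

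In leaves of 5 d the defensins were low on 3 of 4 arrays. PDF1.2 had signals of 83.0 and 3228 in triple mutant leaves (replicates 1 and 2), against 89.3 and 332 in wild-type leaves. PDF1.2b had 6.22 and 4239 in triple mutant leaves, against 11.3 and 13.9 in wild-type leaves, so that 1 of 2 mutant arrays and both wild-type arrays lay below the floor. The single high array was triple mutant replicate 2, and the groups overlapped for PDF1.2.

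The fitted difference at 5 d, triple mutant minus wild type, was 1.59 log2 units for PDF1.2 (SE 1.77, 95% interval -2.41 to 5.59, adjusted p = 1.0 by limma). It was 3.50 for PDF1.2b, with wild type at the floor (SE 1.95, 95% interval -0.92 to 7.92, adjusted p = 1.0). Neither passed the test, and 0.127% of 16558 probe sets did (0.109% higher and 0.0181% lower). Without triple mutant replicate 2 the difference was -1.05 for PDF1.2 and 0 for PDF1.2b, where every remaining 5 d array lay below the floor. Triple mutant replicate 2 also differed from triple mutant replicate 1 in genes of leaf age. These were 1126 other probe sets whose signal rose with age by more than 3 log2 units in wild-type leaves. Their median on replicate 2 was 1.15 log2 units above the 5 d wild-type mean, against 0 on replicate 1. The 5 d wild-type arrays set that mean and served to pick the probe sets, so they give no comparison. Replicate 2 also had fewer of all probe sets below the floor, 25.78% against 31.97% to 35.14% on the other 5 d arrays. The shift is therefore not shown to be particular to genes of leaf age. The part of these differences in the defensin signals was not tested.

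**Figure D3:**
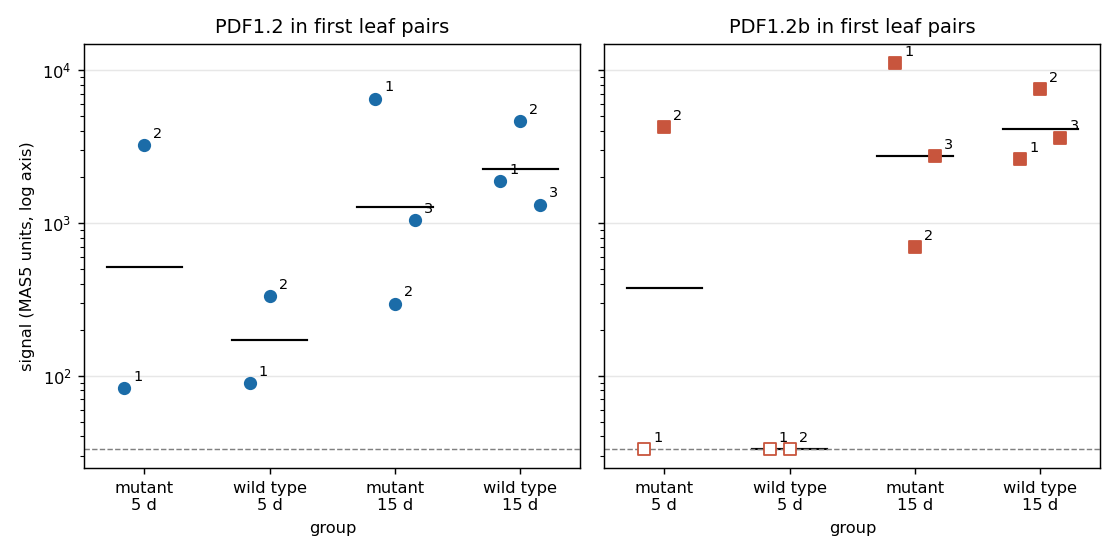
Signal of PDF1.2 (left) and PDF1.2b (right) in first leaf pairs on a log axis, with 1 point per array labelled by replicate number, bars at the mean of log2 signal, and the floor of 33.1 as a dashed line. Open points lie below the floor and are drawn on it. Triple mutant replicate 2 at 5 d (3228 and 4239) lies far above the other 5 d arrays, and at 15 d the mutant arrays lie on both sides of wild type.

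In leaves of 15 d both defensins were expressed in both genotypes, with a wide spread among the mutant samples. PDF1.2 had signals of 6539, 297 and 1049 in triple mutant leaves (replicates 1 to 3), against 1879, 4647 and 1318 in wild-type leaves. PDF1.2b had 11124, 692 and 2754 in triple mutant leaves, against 2630, 7542 and 3626 in wild-type leaves. For each gene the highest and the lowest of the 6 arrays were both mutant arrays, replicates 1 and 2, so the mutant range enclosed the wild-type range.

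The fitted difference at 15 d, triple mutant minus wild type, was -0.83 log2 units for PDF1.2 (SE 1.44, 95% interval -4.10 to 2.43, adjusted p = 0.94) and -0.59 for PDF1.2b (SE 1.59, 95% interval -4.20 to 3.02, adjusted p = 0.97). By limma, 0.749% of probe sets passed at this age (0.725% higher and 0.0242% lower). The intervals span large changes in either direction, so equal levels are not shown. Samples of the same number deviated together at 15 d over all probe sets. The differences within these pairs, numbered 1 to 3, were 1.80, -3.97 and -0.33 for PDF1.2 and 2.08, -3.45 and -0.40 for PDF1.2b. The direction thus differed between pairs, in the same way for both genes, and without mutant replicate 2 the fitted differences were 0.21 and 0.41. The photosynthesis markers were unevenly distributed over the same mutant arrays: they summed to 49119, 6583 and 8665 in triple mutant replicates 1 to 3, against 64648, 37174 and 25354 in wild-type leaves, and their part in the defensin values was not tested.

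The spread between replicates differed by leaf group and was widest in the triple mutant. Between replicates of the 15 d triple mutant the highest signal was 22.0 times the lowest for PDF1.2 and 16.1 times for PDF1.2b, and 97 and 154 of 16558 probe sets had a larger range there. In 15 d wild type the corresponding folds were 3.52 and 2.87, and 1044 and 1645 probe sets had a larger range. Between the 5 d mutant arrays the fold was 38.9 for PDF1.2, with a larger range in 6 probe sets. For PDF1.2b it was at least 128, taken against the floor, with a larger range in 1 probe set. In 5 d wild type the fold was 3.72 for PDF1.2, with a larger range in 99 probe sets, while both PDF1.2b arrays lay below the floor and give no fold. The residual SD of the leaf fit was 2.14 log2 units for PDF1.2 and 2.37 for PDF1.2b, the 49th and the 28th highest, against a median of 0.36.

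Between 5 d and 15 d, PDF1.2b rose in wild-type leaves. Its mean signal was 4599 ± 2597 (SD, n = 3) at 15 d and 12.6 ± 1.85 (SD, n = 2) at 5 d, below the floor, so the rise was at least 126-fold (log2 change 6.97, SE 1.78, adjusted p = 0.0095 by limma). In the background 52.2% of probe sets changed with age in wild type: 24.9% rose and 27.3% fell. The call rests on both 5 d wild-type arrays and was lost without replicate 1 (adjusted p = 0.059) or replicate 2 (adjusted p = 0.058). PDF1.2 had a mean of 2615 ± 1782 (SD, n = 3) at 15 d and 211 ± 172 (SD, n = 2) at 5 d in wild type. Its log2 change of 3.71 missed the threshold (SE 1.61, adjusted p = 0.082). It passed without 5 d triple mutant replicate 1 or 2 (both adjusted p = 0.041), without 15 d triple mutant replicate 1 (0.047) and with the wild-type arrays fitted alone (0.012). It did not pass in the other settings tried, with an adjusted p of up to 0.35 without 5 d wild-type replicate 1, where the change was 2.76.

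In triple mutant leaves the age comparison did not pass for either gene. PDF1.2 averaged 2628 ± 3408 (SD, n = 3) at 15 d and 1656 ± 2224 (SD, n = 2) at 5 d (log2 change 1.29, SE 1.61, adjusted p = 0.53). PDF1.2b averaged 4856 ± 5525 (SD, n = 3) at 15 d and 2123 ± 2993 (SD, n = 2) at 5 d (log2 change 2.88, SE 1.78, adjusted p = 0.20). In this comparison 52.9% of probe sets changed: 25.9% rose and 27.1% fell. Without 5 d replicate 2 the PDF1.2b change was 6.39 and passed (adjusted p = 0.0075), and the PDF1.2 change was 3.93 and did not (adjusted p = 0.085), while without 5 d replicate 1 both changes turned negative, at -1.35 for PDF1.2 and -0.62 for PDF1.2b. The difference between the mutant effects at 15 d and 5 d was -2.42 for PDF1.2 (SE 2.28, adjusted p = 0.88) and -4.09 for PDF1.2b (SE 2.52, adjusted p = 0.80), and 0.344% of probe sets passed that test (0.248% higher and 0.0966% lower). Without 5 d triple mutant replicate 2 that difference was 0.22 for PDF1.2. All these leaf comparisons share arrays.

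Ordered by mean log2 signal, the leaf groups ran from 5 d wild type (7.43 for PDF1.2, and the floor for PDF1.2b) over the 5 d triple mutant (9.02 and 8.55) and the 15 d triple mutant (10.31 and 11.43) to 15 d wild type (11.14 and 12.02). Every pair of neighbours in this order overlapped, except that for PDF1.2b both wild-type arrays at 5 d, like 1 mutant array, were below the floor and have no order. The wild-type seedling array, at 9.59 and 10.16, lay between the means of the 2 leaf ages in wild type.

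The 2 probe sets moved together. Over the 10 seedling arrays Pearson's r of their log2 signals was 0.97 (permutation p = 3e-05) and Spearman's rho was 0.95 (permutation p = 0.00012, both two-sided with 100000 resamples). This was the only correlation of this kind that was tested. Without the 2 arrays farthest from the median of PDF1.2, those of the quadruple mutant and myb3r4, r was 0.96 (permutation p = 0.00092, n = 8). As a description, r was 0.87 over the 5 arrays of wild type and single mutants and 0.98 over the 5 arrays of double to quadruple mutants. Across leaf arrays the deviations from the group means correlated at 0.94 (n = 10), and at 0.91 (n = 8) without the 5 d triple mutant. These deviations cancel out within each group, so the arrays are not independent points. In 5 d wild type PDF1.2b has no deviation because both arrays were at the floor. The arrays share their RNA samples, and the probe sets may share transcripts, as stated above.

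The exception to this agreement lay in young leaves. PDF1.2 stood above the floor on all 4 arrays of 5 d, with 332 against 89.3 in the wild-type replicates 2 and 1, while PDF1.2b was below the floor on 3 of them, including both wild-type arrays. In 15 d wild type the lowest array was replicate 3 for PDF1.2 and replicate 1 for PDF1.2b.

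**Figure D4:**
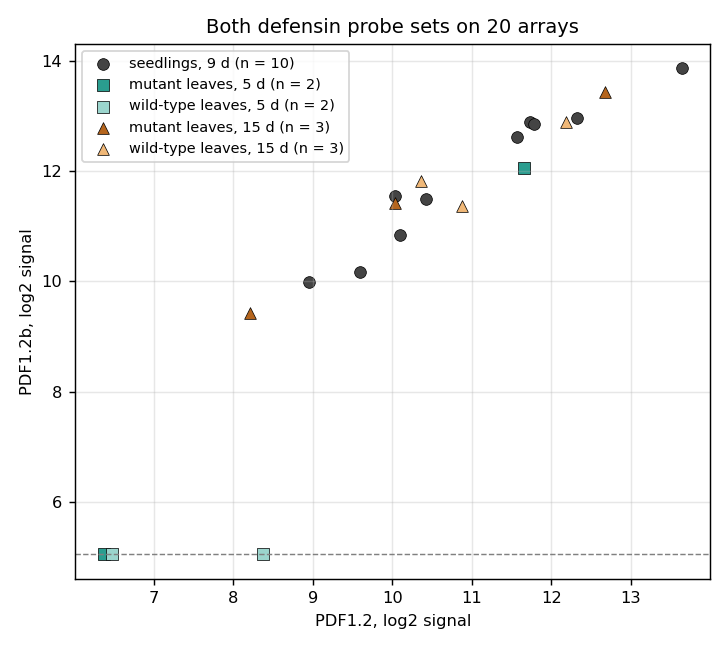
Log2 signal of PDF1.2b against PDF1.2 on all 20 arrays, with the floor for PDF1.2b as a dashed line. Seedling and 15 d leaf arrays lie along 1 diagonal band, the high 5 d mutant array lies on it too, and the other 3 arrays of 5 d lie on the floor of PDF1.2b.

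The other defensins had smaller seedling ratios over wild type than the members reached in double to quadruple mutants, which was not tested as a difference. Of 15 listed family genes 12 had a named probe set, and 7 besides the members were above the floor in seedlings. Like the members, none of the 7 passed the test for any of the 4 mutations, on which 0% to 0.0153% of all probe sets passed. Their median effects were 0.05 for myb3r1, 0.02 for myb3r3, -0.04 for myb3r4 and -0.01 for myb3r5. These medians include PDF2.6 and PDF3.2, below the floor on 17 and 18 of 20 arrays, whose effects the floor holds near 0. They therefore do not show that the family stayed level. In the same order of mutations, the effects were 0.30, 0.55, 0.36 and -0.72 for PDF2.1. For PDF1.4 they were 0.34, -0.50, 0.0035 and 0.48. The log2 ratios of the 7 over wild-type seedlings ran from -0.88, for PDF1.4 in myb3r4, to 1.61, for PDF2.1 in myb3r3. In some single mutants another defensin exceeded both members. PDF2.1 had 1.61 in myb3r3 and 0.76 in myb3r4, against 0.50 and -0.64 for PDF1.2 and 0.68 and -0.17 for PDF1.2b. In myb3r1 and myb3r5 none exceeded PDF1.2b (1.37 and 1.32). PDF2.2 and PDF2.3, expressed in all samples, had seedling signals from 8836 to 12191 and from 4489 to 7409. PDF2.5 ranged from 248 to 537. PDF1.1, PDF2.4 and PDF3.1 were not above the floor on any seedling array, and PDF2.6 and PDF3.2 reached at most 42.9 and 37.5.

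**Figure D5:**
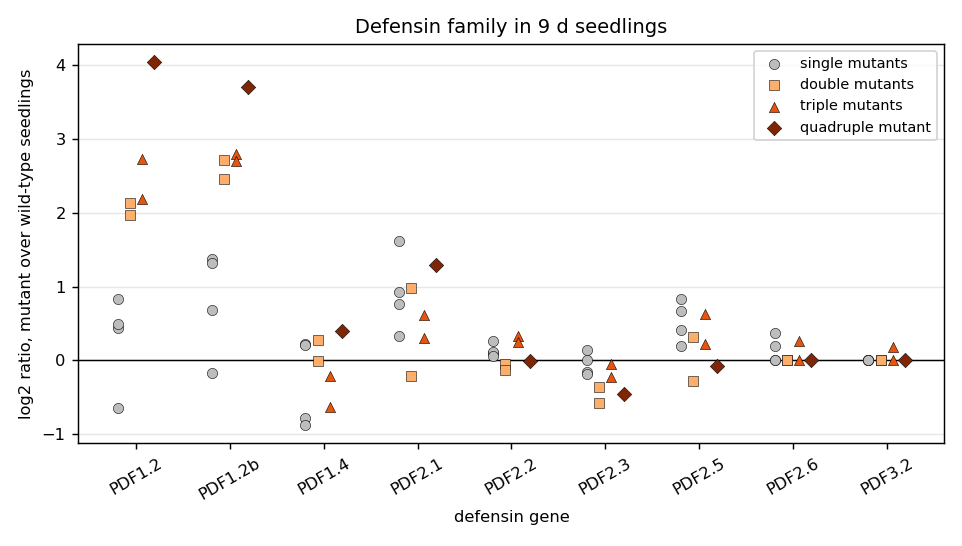
Log2 ratio over the wild-type seedling array for 9 defensin genes in 9 mutant genotypes (1 array each), with colour and shape giving the number of mutated MYB3R genes. PDF1.2 and PDF1.2b reach 4.04 and 3.70 in the quadruple mutant, while the other 7 genes stay between -0.88 and 1.61.

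In leaves 4 other defensins were tested, and none passed the genotype test at either age (median 0.04 at 5 d and 0.81 at 15 d), where 0.127% and 0.749% of all probe sets passed. The largest difference was that of PDF1.4, with a mean of 521 ± 424 (SD, n = 3) in triple mutant leaves and 84.6 ± 35.3 (SD, n = 3) in wild-type leaves at 15 d (log2 change 1.93, adjusted p = 0.61). With age in wild type PDF2.2 fell by 3.77 log2 units (adjusted p = 1.5e-04) and PDF2.3 rose by 0.91 (adjusted p = 0.024). In the triple mutant PDF1.4 (2.96, adjusted p = 0.041) and PDF2.1 (1.29, adjusted p = 0.036) rose and PDF2.2 fell by 3.18 (adjusted p = 4.5e-04).

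Of the jasmonate pathway few genes had a named probe set: 26 of 135 listed genes in all, markers and defensins included, so the receptor, the JAZ repressors, the ERF factors ERF1 and ORA59 and most biosynthesis enzymes are not analysed here. None of the measured pathway genes below passed a seedling or a genotype test. However, ERF96 was not tested at all and THI2.1 was not tested in leaves, since their signals did not meet the floor filter. In synthesis, OPCL1 encodes an enzyme that activates jasmonate precursors and JMT the enzyme that makes methyl jasmonate. OPCL1 had a signal of 648 in quadruple mutant seedlings, against 358 in wild-type seedlings, and JMT had 67.3, against 85.5. Both rose with age in wild-type leaves, OPCL1 by 3.56 (adjusted p = 3.5e-05) and JMT by 2.07 log2 units (adjusted p = 0.0061). In triple mutant leaves they rose too, by 3.32 (adjusted p = 7.6e-05 by limma) and 1.51 (adjusted p = 0.027). Rises with age were common: 24.9% of all probe sets in wild type and 25.9% in the triple mutant.

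Among regulators, MYC3 and MYC4 encode wound-branch factors. MYC3 had a signal of 357 in quadruple mutant seedlings, against 312 in wild-type seedlings. MYC4 had 384, against 402. Both rose with age in wild-type leaves, by 1.31 (adjusted p = 0.0027) and 2.36 log2 units (adjusted p = 3.3e-04). In triple mutant leaves they rose by 1.74 (adjusted p = 6.5e-04 by limma) and 1.53 (adjusted p = 0.0037). EIN3, the ethylene factor upstream of the ERF genes, had 1117 in quadruple mutant seedlings, against 1150 in wild-type seedlings. With age EIN3 rose by 1.36 in wild type (adjusted p = 0.0058 by limma) and by 1.05 in the triple mutant (adjusted p = 0.020). ERF96, an ERF factor gene, was below the floor on 19 of 20 arrays.

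GRX480 encodes a salicylate-induced glutaredoxin known to repress PDF1.2. Its seedling signal was 107 in the quadruple mutant, against 108 in wild type, and in leaves it rose by 3.52 log2 units with age in wild type (adjusted p = 1.4e-05) and by 3.68 in the triple mutant (adjusted p = 2.2e-05). THI2.1, a thionin gene that jasmonate induces, was below the floor on 15 of 20 arrays. It had a signal of 109 in quadruple mutant seedlings, against 10.6 in wild-type seedlings, the highest and the lowest of the 10 seedling arrays. THI2.1 passed no seedling test and was not tested in leaves.

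The genes whose pattern was most like the mean log2 profile of both defensins were picked by Pearson's r among 7738 named probe sets in seedlings. Over the 10 seedling arrays these were AT4G16260 (r = 0.95), AT3G23550 (0.95), ATPMEPCRB (0.93), AT4G38540 (0.93) and AT5G03660 (0.93). ATPMEPCRB encodes a pectin methylesterase, an enzyme that modifies cell walls. The signal of AT3G23550 was 2688 in the quadruple mutant, against 688 in wild type, and that of AT4G16260 was 2287, against 1025. All 5 varied less than the defensins, with an SD of log2 signal from 0.22 to 0.82, and 0.142% of the candidates had r above 0.9.

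Over the 10 leaf arrays the nearest of 8051 candidates were AT1G51270 (r = 0.92), AT3G62860 (0.90), COR15A (0.90), AT2G25510 (0.90) and AT3G08840 (0.90), with r above 0.9 in 0.0373%. COR15A encodes a cold-induced chloroplast protein. Some of these signals were low: AT1G51270 ran from 32.5 to 139 and AT3G08840 from 63.2 to 146. COR15A and AT2G25510 were closer to PDF1.2b (r = 0.93 and 0.95) than to PDF1.2 (0.82 and 0.79). No gene was among the nearest 5 in both tissues, which says little with so many candidates.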

How the data were processed

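Per the labels' protocols, RNA was extracted with a Plant RNeasy kit, and 10 micrograms of it served to prepare biotinylated cRNA for 1-colour Affymetrix arrays. What the authors deposited is an intensity on a linear scale for each probe set of each array, made with MAS5 per the submitters' processing notes, which name no version. Each array was scaled to 1 mean trimmed by 2% at each end, values under the floor (the median over 20 arrays of the 25th percentile, 33.1) were raised to it before taking log2. Of 22810 probe sets, 64 array controls were left out. Where a group lay below the floor, a fold is given as at least that value.

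The 10 leaf arrays were fitted together in limma 3.58.1 (R 4.3.3), with a mean per group, a variance trend and 6 residual degrees of freedom, over the 16558 probe sets that exceeded the floor throughout at least 1 leaf group. The 10 seedling arrays were fitted with 1 term per mutated gene over the 19626 that exceeded the floor in any seedling genotype. Tests were two-sided with Benjamini-Hochberg adjustment over all probe sets, and an adjusted p under 0.05 was a call. Both fits were tested on simulated data with 200 changed probe sets. The permutation test of the correlation and the figures used Python 3.11.15 and matplotlib 3.10.9.

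Names came from the platform annotation and the gene table: 13513 probe sets had 1 gene, 503 several and 8730 none. The members, the gene lists and the choice of genes to name were made with earlier results of these data known. Named were all defensins, up to 3 called genes per list or otherwise the 2 with the highest signal, and the 5 nearest profiles per tissue; MYC3, MYC4, OPCL1, JMT, EIN3, ERF96, GRX480 and THI2.1 were all the measured pathway genes. Same-numbered 15 d samples correlated at 0.73, 0.60 and 0.57 in their deviations from group means. The highest value between unlike numbers was 0.42, for mutant replicate 2 and wild-type replicate 3. The numbers may thus pair the samples, which the labels do not state. At 5 d the value was 0.48, and -0.48 between unlike numbers, which mirror each other by construction with 2 arrays per group. Replicates are separate samples per the labels, and nothing says whether they came from separate cultures, so the p-values reflect no more than the spread among these samples, which may be technical. Alternatives covered the floor, normalization, filter, variance model, arrays in the fit, replicate block and leaving out each array. No sequences of these genes were used.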

Additional observations from a re-analysis of the deposited data

How the results depend on the processing

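With the replicate number as a block within each age, the genotype differences of PDF1.2 and PDF1.2b were 1.59 and 3.50 at 5 d and -0.83 and -0.59 at 15 d, and no call changed; age comparisons could not be fitted with that block. A replicate block across ages gave 3.97 and 7.02 for the age change in wild type and changed no call either. Of 384 comparisons of a defensin result with an alternative setting, 362 kept the direction and the side of the threshold. With the wild-type arrays fitted alone the age change of PDF1.2 (3.71) passed the threshold. The slopes per mutated gene passed without a floor (1.07 and 0.97) and with the filter at 4 times the floor (1.08 and 0.97), both settings with slopes close to those reported; the cause was not tested. Leaving out 1 array gave ranges, PDF1.2 before PDF1.2b, of -1.05 to 4.23 and 0 to 7.0 at 5 d, -2.02 to 0.21 and -1.59 to 0.41 at 15 d (-2.15 to 0.73 and -1.92 to 0.84 without both 15 d arrays of a number), -5.06 to 0.22 and -7.59 to -0.59 for the difference of effects, 2.76 to 4.66 and 6.54 to 7.30 for age in wild type, -1.35 to 3.93 and -0.62 to 6.39 for age in the triple mutant, and 1.0 to 1.19 and 0.89 to 1.03 for the slope. The arrays that decide a call or a direction are named in the results; leaving out both 15 d arrays numbered 2 also turned the direction (0.73 and 0.84). The mutation terms kept their sign and missed the threshold throughout, with values from 0.36 to 1.68 for PDF1.2 and 0.25 to 1.68 for PDF1.2b, and the correlation stayed between 0.96 and 0.98. Over all probe sets, counts of calls ran from 0 to 102 at 5 d (21 as reported, 52 with the block), 43 to 1442 at 15 d (124; 779), 7 to 497 for the difference of effects (57; 181), 0 to 53 for myb3r3 (1), 0 to 15 for myb3r4 (3), 0 to 54 for myb3r5 (0) and 0 to 44 for the number of mutated genes (0), while those for age stayed within 1.5 times. With 2 or 3 arrays per leaf group and 1 per seedling genotype, the number of arrays limits every value; where 1 of 2 arrays was left out, the lone one is taken to vary as the replicated groups do.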
